A study of Mus musculus with 2 samples.

Results

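Acute phase proteins are plasma proteins whose output from the liver changes during infection, injury and inflammation. Their genes are read in hepatocytes under the control of cytokines of the interleukin and tumour necrosis families, which act through STAT, C/EBP and NF-kB factors. In the mouse the inducible serum amyloid A proteins and serum amyloid P are among those that climb most steeply, whereas others, such as hemopexin, are made in quantity by healthy liver too. The 10 genes described here are Saa2, Saa3, Saa4, Hp, Hpx, Orm1, Orm2, Apcs, Crp and Lcn2. They were chosen by symbol among the probe sets that the platform annotation gives to 1 gene only, and all 10 had at least 1 such probe set. They are 10 of 8251 genes measured in this way, and they were read by 13 of 10833 probe sets.

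The data come from 2 samples of mouse liver total RNA, bought ready-made from a commercial supplier under 1 catalogue number and measured on 1 Affymetrix oligonucleotide array each. They form 1 group, untreated as far as the labels say, and the labels give no strain, sex or age and do not say whether the RNA was pooled from several animals or whether the arrays shared an extract. The spread between the arrays may therefore be purely technical. The titles say liver and the source field says spleen. The group follows the titles, and of the marker genes 11 of 12 measured for hepatocytes and 0 of 12 for lymphocytes and spleen were above the background described next, against 24.6% of all genes. The brightest of the lymphocyte and spleen list, the immunoglobulin gene Ighm, gave 629.6 on replicate 1 and 589.7 on replicate 2, past the threshold on 1 array. The values are the deposited signal intensities on a linear scale, in arbitrary units. Probe brightness depends on probe sequence, so a signal places a gene within the array and does not give its transcript number. Arrays carry no read depth, and having only 2 limits the precision of every value. There is no second group and no test between groups, so all results below are descriptions.

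A background threshold was taken from 90 genes of brain, testis, retina, lens and striated muscle, as the 95th percentile of their signals on each array. It lay at 581.7 on replicate 1 and 606.7 on replicate 2. Of the 90 genes, 4 still passed it on both arrays, namely Tnp1, Pvalb, Acta1 and Clgn. Only Acta1 among them had a plain set, that is, one without a suffix letter. The sets of Tnp1 and Clgn carry the letter r and that of Pvalb the letter i. Pcp2, past the line on replicate 1, and Crybb2, past it on replicate 2, also carry r. The line was thus drawn largely by sets that are not plain. Plain sets alone, for 84 background genes, put it at 309.1 on replicate 1 and 312.6 on replicate 2. Above the main threshold on both arrays were 9 of the 10 acute phase genes, against 24.6% of all genes (2027 of 8251). The exception was Saa3. Counted over probe sets, 11 of 13 were above it, against 20.4% of all named probe sets. By mean log2 signal 6 of the 10 genes lay among the brightest 10% of genes, and their median percentile was 94.4, against 50.0 for all genes.

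**Figure D1:**
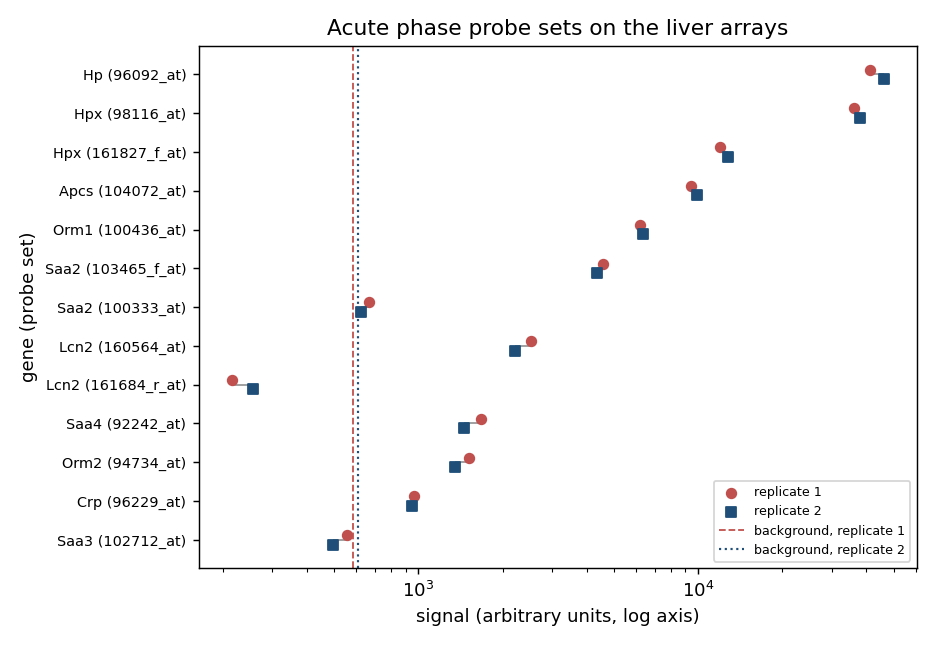
Signal of the 13 probe sets of the acute phase genes on replicate 1 (circles) and replicate 2 (squares), on a log axis in arbitrary units, with genes ordered by their brightest set and the background threshold of each array as a vertical line. Hp and Hpx stand at the bright end, Saa3 lies left of both lines, and the 2 sets of Saa2, of Lcn2 and of Hpx lie far apart.

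The upstream sequences of the brightest and the dimmest of these genes are shown for reference, and their relation to the signal was not tested. Promoters of 8 of the 10 genes were found in a RefSeq table of build GRCm38.p6. No entry was used for Hp and Orm1. The 4 sequences are the 250 bases before the annotated start of the 2 brightest and the 2 dimmest genes with an entry, read 5′ to 3′ on the strand of the gene. Capitals mark matches to a C/EBP core (TTGCNNAA), a palindromic STAT site (TTCNNNGAA) or a TATA box (TATAAA), each searched on both strands. Hpx lies on the minus strand at chr7:105600117-105600366, Apcs on the minus strand at chr1:172895055-172895304, Crp on the plus strand at chr1:172697806-172698055 and Saa3 on the minus strand at chr7:46715677-46715926.
Hpx: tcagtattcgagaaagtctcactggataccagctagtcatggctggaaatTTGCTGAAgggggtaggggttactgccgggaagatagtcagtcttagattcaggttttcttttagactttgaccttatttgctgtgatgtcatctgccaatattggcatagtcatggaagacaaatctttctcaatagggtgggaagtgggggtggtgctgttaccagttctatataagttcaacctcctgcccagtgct
Apcs: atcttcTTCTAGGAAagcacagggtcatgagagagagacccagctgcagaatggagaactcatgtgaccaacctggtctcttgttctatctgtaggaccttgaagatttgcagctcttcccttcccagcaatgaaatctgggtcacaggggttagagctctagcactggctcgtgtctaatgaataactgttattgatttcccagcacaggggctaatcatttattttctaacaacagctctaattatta
Crp: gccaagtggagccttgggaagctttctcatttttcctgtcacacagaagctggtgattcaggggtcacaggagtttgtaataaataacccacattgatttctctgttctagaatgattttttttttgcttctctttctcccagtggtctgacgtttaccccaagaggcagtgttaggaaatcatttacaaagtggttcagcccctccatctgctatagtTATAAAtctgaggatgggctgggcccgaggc
Saa3: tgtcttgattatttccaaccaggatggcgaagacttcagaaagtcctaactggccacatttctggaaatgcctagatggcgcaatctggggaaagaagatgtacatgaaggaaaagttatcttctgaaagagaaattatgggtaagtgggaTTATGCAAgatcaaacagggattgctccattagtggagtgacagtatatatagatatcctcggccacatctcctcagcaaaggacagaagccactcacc
In these windows the C/EBP core began 200 bases upstream of the start in Hpx and 99 bases upstream in Saa3. The STAT palindrome began 244 bases upstream in Apcs, and the TATA box 31 bases upstream in Crp.

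The C/EBP core was found in 6 of the 8 acute phase promoters, against 9.56% of the 32851 promoters of the same length in the table. The 6 genes were Hpx, Saa2, Lcn2, Saa4, Orm2 and Saa3, and Saa4 held 2 matches, at 245 and 52 bases upstream. A looser C/EBP form (TTNNGNAA), of which each core match is also a match on the other strand, was found in 7 of 8, against 36.8%. The match in Crp, 78 bases upstream, was of this looser form. The STAT palindrome was found in 1 of 8, against 7.02%, and a looser STAT form (TTNCNNNAA), which can overlap the C/EBP core, in 7 of 8, against 32.9%. The TATA box was found in 2 of 8, in Crp and Orm2, against 12.4%. Only the exact letters TATAAA were searched, so a window without them may still hold a variant TATA box. An NF-kB form (GGNNTTNCC) was found in 1 of 8, in Saa3 at 187 bases upstream, against 13.5%, and there it overlapped a looser C/EBP match. Forms of HNF1 (GTTAATNAT, in 0.737% of promoters), HNF4 (CAAAGTCCA, in 0.384%) and FOXA (TGTTTNC, in 17.8%) were found in 0 of the 8 windows, which says only that these letters are not there. The letters were chosen after several forms had been tried on these genes, and a match is a run of letters and not an observed site. Among the other acute phase genes the core was in 12 of 28 promoters (42.9%) for those listed as induced. For those listed as repressed it was in 7 of 21 (33.3%). The looser C/EBP form was in 57.1% of the promoters of either list. The looser STAT form was in 60.7% for those listed as induced and 57.1% for those listed as repressed. Some genes had several promoters.

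**Figure D2:**
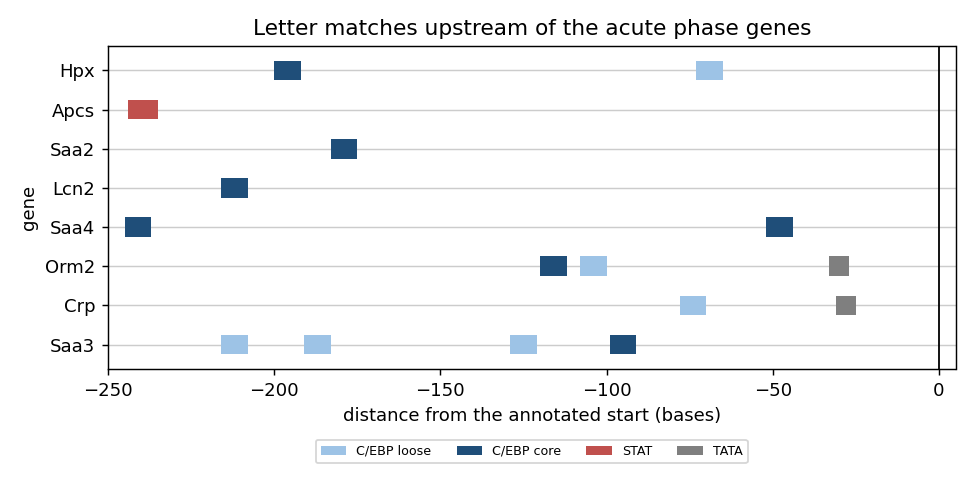
Matches to the C/EBP core, its looser form, the STAT palindrome and the TATA box in the 250 bases before the annotated start of the 8 genes with a promoter entry, ordered by signal, with distance from the start in bases on the horizontal axis. A core match is drawn over the looser match at the same place, and dark blue core matches are seen in 6 of the 8 genes, with none in Apcs or Crp.

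Haptoglobin and hemopexin, the scavengers of the blood pigment, gave the brightest signals of the list. Hp encodes haptoglobin, which captures free haemoglobin in plasma. Its signal was 41136 on replicate 1 and 46160.2 on replicate 2, a mean of 43648 ± 3553 (SD, n = 2 arrays), which put it at rank 9 of 8251 genes. Hpx encodes hemopexin, which binds free haem and carries it to hepatocytes. Its brighter probe set gave 36091.5 on replicate 1 and 37955.6 on replicate 2, with a mean of 37024 ± 1318 and rank 15. The other Hpx set, of suffix f, gave 11932.3 and 12739.7 and was thus also far above background. Both genes, and both sets of Hpx, were higher on replicate 2.

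The pentraxins Apcs and Crp are ring-forming pattern recognition proteins of plasma and are adjacent coding genes on chromosome 1. Apcs encodes serum amyloid P component, the main acute phase pentraxin of the mouse, and it gave 9458.7 on replicate 1 and 9899.1 on replicate 2 (mean 9679 ± 311.4, percentile 98.3). Crp encodes C-reactive protein, the main acute phase pentraxin in human but a minor one in mouse. It gave 962.1 on replicate 1 and 949.5 on replicate 2 (mean 955.8 ± 8.91, percentile 83.1). Both pentraxin genes were above background on both arrays. Crp had the closest agreement between arrays of the 10 genes, with a ratio of 1.01.

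The orosomucoid genes encode alpha-1-acid glycoprotein, a heavily glycosylated lipocalin that binds drugs and lipids. Orm1 and Orm2 lie on chromosome 4 with Orm3 between them. Orm1 gave 6198 on replicate 1 and 6353.9 on replicate 2 (mean 6276 ± 110.2, percentile 97.1). Orm2 gave 1513.9 on replicate 1 and 1347.1 on replicate 2 (mean 1431 ± 117.9, percentile 88.2). A further probe set, of suffix g, is annotated to both genes and was left out by the rule for members. It gave 17407.2 on replicate 1 and 17134.9 on replicate 2, so that the signal of these copies cannot be fully assigned to 1 gene. Orm3, shown for its place between them, was not above background (468.8 on replicate 1 and 365.4 on replicate 2).

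The serum amyloid A proteins are apolipoproteins of high-density lipoprotein. Saa3, Saa4 and Saa2 lie in 1 cluster on chromosome 7, with Saa1, which was not analysed here, between Saa4 and Saa2. Saa2, an inducible form made by hepatocytes, was read by 2 sets that disagreed. The set of suffix f, whose probes match a family of like sequences, gave 4580.2 on replicate 1 and 4362.1 on replicate 2 (mean 4471 ± 154.2, percentile 96.0). The plain set gave 664.9 and 624.4 (mean 644.7 ± 28.6), only just past the threshold on both arrays. Saa1 and Saa2 are near-identical copies, so neither value can be assigned to Saa2 alone. With plain probe sets only, 5 of the 10 acute phase genes lay among the brightest 10% of genes.

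Saa4 encodes the constitutive serum amyloid A of lipoprotein particles. It gave 1672.9 on replicate 1 and 1456.2 on replicate 2 (mean 1565 ± 153.2, percentile 89.0), which was the widest relative gap of the 10 genes at a ratio of 1.15. Saa3 is made in the mouse largely by macrophages, fat and epithelia and also by inflamed liver. It gave 554.3 on replicate 1 and 497 on replicate 2 (mean 525.7 ± 40.5, percentile 70.7). Both values lay below the threshold, so Saa3 was not above background, which does not show that it was absent. With the threshold at the 90th percentile of the same 90 genes, at 374.2 on replicate 1 and 362.5 on replicate 2, Saa3 passed and all 10 genes did, against 35.1% of all genes. With plain probe sets only, the threshold was 309.1 on replicate 1 and 312.6 on replicate 2. There too all 10 genes passed, against 36.9% of genes read this way. Saa3 itself has a plain set, so its call depended on which background sets drew the line. Saa3 stayed below the threshold after quantile normalization and on each array alone.

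Lcn2 encodes lipocalin 2, which withholds iron from bacteria by binding their siderophores and is made by neutrophils and by stimulated hepatocytes. Its plain set gave 2524.2 on replicate 1 and 2222.2 on replicate 2 (mean 2373 ± 213.5, percentile 92.8). Its other set, of suffix r, which marks probes chosen under relaxed design rules, gave 215 and 256.7 and was not above background. A set below background beside one above it was common, since it was found in 82.2% of genes with 2 or more sets of which at least 1 was above (531 of 646), and in 1 of the 3 acute phase genes with 2 sets.

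Because Lcn2, Saa3 and Hp are also made by blood or tissue cells other than hepatocytes, marker genes of such cells were read beside them, again against 24.6% of all genes above background. Of 14 neutrophil genes, 1 was above background, the growth factor receptor Csf3r (625.9 on replicate 1 and 790.6 on replicate 2), and the summed signal of the list was 1918 and 2206. The granule protein genes Camp (268.8 and 354.4) and Elane (175 and 279.3), next in brightness and named after their values were seen, were not above it. Of 12 macrophage genes, 7 (58.3%) were above it, led by the complement component gene C1qc (2540.7 and 2985.9), with a summed signal of 13015 and 13123. Of 7 adipocyte genes, 1 was above it, the hormone gene Lep (1160.1 and 854.4), with a summed signal of 1858 and 1495. The part of these cells in the signals of Lcn2, Saa3 and Hp was not tested.

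Other genes of the acute phase response were counted next. Genes outside the 10 that were listed as induced were above background in 19 of 27 cases, and their median percentile was 97.3. Induction was not measured here, and not every listed gene need be induced in the mouse. The brightest were the alpha-1-antitrypsin genes Serpina1c, Serpina1b and Serpina1e, which are near-identical copies, with means of 65213 ± 4153, 58494 ± 4082 and 53704 ± 3019. The lowest by mean log2 signal was A2m, annotated as alpha-2-macroglobulin, at 12 on replicate 1 and 50.7 on replicate 2. Genes listed as repressed in the acute phase response were above background in 14 of 15 cases, and their median percentile was 99.4. Repression was not measured here either. This list was led by albumin (Alb, 65213 ± 829.6), the lipoprotein Apoa1 (65054 ± 6337) and the urinary protein Mup3 (48070 ± 3007). Mup3 was read from a set of suffix f, so its value cannot be assigned to Mup3 alone. The lowest was the bile acid enzyme Cyp7a1 (543.2 ± 32.5). Both lists stood against 24.6% of all genes above background.

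Of the cytokines and receptors that start the response, 3 of 18 (16.7%) were above background, against 24.6% of all genes. The median percentile of that list was 34.8. These were receptor genes, namely Lifr, the receptor of leukaemia inhibitory factor (3280.5 on replicate 1 and 3227.7 on replicate 2), Il6ra, which binds interleukin 6 (1098.7 and 1254.9), and Tnfrsf1a, a receptor of tumour necrosis factor (628.7 and 743.3). Il6 itself had the lowest percentile of the list, at 7.2 and 30.1. On replicate 1 alone 6 of 18 were above its threshold, against 27% of all genes. With the threshold at the 90th percentile 6 of 18 were above it on both arrays, against 35.1% of all genes.

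Signalling and transcription factor genes were above background in 16 of 38 cases (42.1%), against 24.6% of all genes, and their median percentile was 70.5. The brightest were the C/EBP genes Cebpa (9564.3 on replicate 1 and 10542.2 on replicate 2) and Cebpb (5489.1 and 5971.4), whose proteins bind promoters of acute phase genes, and the AP-1 gene Jund (5062.2 and 6064.1). The lowest was the phosphatase gene Ptpn11 (20.2 and 10.9). Among genes of receptors, binding partners and clearance of the 10 proteins, 12 of 24 were above background, against 24.6% of all genes. The median percentile of that list was 72.6. The brightest were Apoa1, the haemoglobin gene Hba-a1 (24074.9 and 24908.4), whose product haptoglobin binds, and Lcat (10757.7 and 10302.7), an enzyme of lipoprotein particles. The lowest was the gelatinase gene Mmp9 (21.7 and 18.3), listed as a partner of lipocalin 2, although binding was not measured here.

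**Figure D3:**
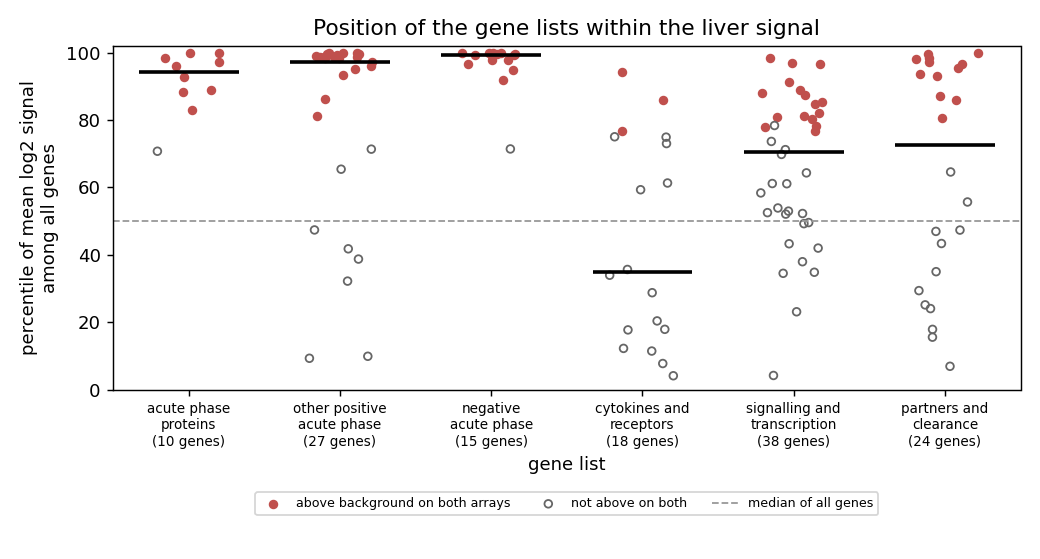
Percentile of mean log2 signal among all 8251 genes for the genes of 6 lists, with filled points for genes above background on both arrays, open points for the others, a black bar at the median of each list and a dashed line at the median of all genes. The acute phase proteins have their median at 94.4, near the other positive and the negative acute phase genes, while the cytokines and receptors have theirs at 34.8.

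The arrays were then compared for the 10 genes. Log2 ratios of replicate 1 over replicate 2 ran between -0.17 (Hp) and 0.20 (Saa4), with a median of 0.04, against 0.02 for all genes. None of the 10 differed by more than 2-fold, against 14% of all genes and 0.0987% of genes above background (2 of 2027). The median size of the log2 difference was 0.12 for the 10 genes and 0.12 for all genes above background. The order of the 10 signals was the same on both arrays. Neighbours in that order had ranges that did not overlap, except Saa4 and Orm2.

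Of the 10 genes, 6 were higher on replicate 1 and 4 on replicate 2, against 46% of genes above background that were higher on replicate 1. The 6 were the dimmer genes, with means below 5000, and the 4 were Hp, Hpx, Apcs and Orm1. Among the 2078 other genes in the signal range of the dimmer 6, 49.8% were higher on replicate 1. Among the 226 other genes in the range of the brighter 4, 30.5% were. This split at 5000 was made after the values were seen. After quantile normalization of the arrays 8 of the 10 were higher on replicate 1, as Hpx and Orm1 turned round, with log2 ratios of 0.03 and 0.05. The other 8 kept their direction.

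**Figure D4:**
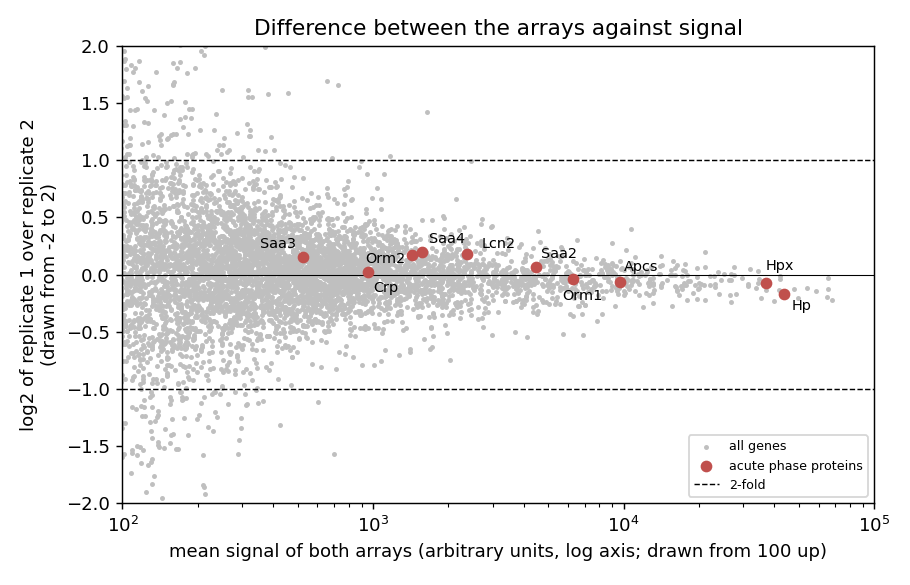
Log2 of replicate 1 over replicate 2 against mean signal of both arrays (log axis) for all genes in grey and the 10 acute phase genes in red, with dashed lines at 2-fold. The 10 genes lie between -0.17 and 0.20, inside the grey cloud, whose spread is wider at low signal.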

How the data were processed

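The authors deposited 1 signal intensity per probe set and array, single-colour and on a linear scale. How probes were summarised and scaled, and which sets were called present, is not stated in the labels or the table. The mean after trimming 2% at each end was 500.5 on both arrays. Of 12488 probe sets, 66 were controls; 10855 named 1 gene, 396 several and 1237 none. Gene identifiers were looked up in RefSeq (GRCm38.p6), where 10839 matched and 0 symbols changed. No build is named for the array, so coordinates are given only for RefSeq promoters.

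Each gene was read from its brightest probe set by mean log2 signal over the arrays, and percentiles were taken over 8251 genes. The members and lists were chosen with earlier results of these data known. Named genes are all members, the 3 highest and the lowest of each other pathway list, the highest of each marker list and background genes above the threshold; exceptions are stated. No group comparison was possible and no p-value was computed. Alternatives were other thresholds, quantile normalization, averaging all probe sets per gene, plain probe sets only, log2(value + 32), percentiles among genes above background and each array alone. The 2-fold call, the percentiles and the quantile normalization were tested on simulated data with equal noise at every signal level. The background threshold, the list counts and the letter search were not tested in this way. Python 3.11.15, numpy 2.4.6, pandas 2.3.3 and matplotlib 3.10.9 were used.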

Additional observations from a re-analysis of the deposited data

Results flagged for a closer look

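The probe set that is annotated to both Orm1 and Orm2, outside the values used for the list, carried a signal of 17271 ± 192.5 (SD, n = 2 arrays), above the threshold and above the Bacillus and yeast control sets, which reached at most 94.8 on replicate 1 and 99 on replicate 2. It was the only further probe set that names one of the 10 genes among several.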

How the results depend on the processing

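Of 114 values recomputed under the alternatives, 99 were labelled unchanged and 15 moved. Signals and the median percentile counted as unchanged within the SD between the arrays, and counts within 1.5 times. The median log2 difference was held to the SD across the 10 genes, 0.13, and went from 0.04 to -0.008 with averaged probe sets. Part of the tally was fixed in advance. The signal on a single array always lies within the SD of the mean, and 7 of the genes have only 1 probe set to average. The count of acute phase genes above background was 9 or 10 in all 8 alternatives, against 24.6% to 64.4% of all genes. None of these set a threshold clearly above the main one, so a fall in the count was hardly tested. The median percentile was 91.7 with all probe sets of a gene averaged and 91.7 with plain probe sets only. Among genes above background it was 83.6, taken over 9 genes because Saa3 dropped out, and 3 of these 9 were in the brightest 10%. With averaged probe sets Hpx was at 21371, Lcn2 at 746.0 and Saa2 at 1698. For cytokines and receptors the count of 18 was 6 at the 90th percentile (35.1% of all genes), 9 above the highest Bacillus or yeast control (64.4%), 8 above the median gene on both arrays (46.9%), 6 with averaged probe sets (32.3%) and 7 with plain sets (36.9%); on a single array it ran between 3 and 6. For signalling and transcription factors it was 34 of 38 above the highest control and 28 above the median gene, against the same 64.4% and 46.9% of all genes. Each of these thresholds was lower than the main one; with averaged sets it was 303.7 on replicate 1 and 317.6 on replicate 2, and with plain sets 309.1 and 312.6. Otherwise the cause was not tested. No paired analysis was possible because there is 1 group. Signals near the threshold, such as that of Saa3 and the plain set of Saa2, are where signal over background limits the calls.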
